A study of Mus musculus with 3 samples.

Results

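The genes described here make serine, glycine, cysteine, asparagine, glutamine, alanine, aspartate, proline and arginine, or carry the one-carbon units that serine releases. They are the 41 rows of the deposited table whose symbols stand on a list of enzymes for these pathways, out of 34591 rows in all, and all 41 symbols were found. The list was drawn up with earlier results of these libraries in view, so the levels and the differences between libraries are given as a description. Tests of the spread between libraries were run over all genes, and nothing about the members is read from them.

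The libraries come from 4T1, an established mouse mammary carcinoma line, engineered to over-express WISP2, a secreted matricellular protein. Messenger RNA of 1 group (genotype WISP2 OE) was sequenced in 3 libraries, named by their column suffixes as C1, C2 and C3. All of them carry the over-expression; the empty-vector cells of the design text are not analysed here, so no effect of WISP2 is estimated. Per the labels' protocols, the cells grew in RPMI medium with calf serum and antibiotics, and transduced tumour cells were selected with puromycin, but that protocol speaks of Wisp1 constructs; the sources used here give neither the promoter that drives WISP2 nor whether the cells are a pool or a clone. No label ties the libraries to separate cultures, so an SD measures the spread between these samples, which may be technical. They held 17630755 (C1), 67028365 (C2) and 47577315 (C3) counts. Levels are given in CPM, a gene's counts scaled to all gene-assigned counts of its library, and 1 count was worth 0.0567, 0.0149 and 0.0210 CPM in C1, C2 and C3.

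The labelled cell type was checked against fixed marker lists. All 7 epithelial markers, among them the keratin gene Krt8 and the cadherin gene Cdh1, reached 1 CPM in every library, with summed levels from 3592 to 3939 CPM. Of 10 macrophage and leukocyte markers 3 did so (Lyz2, Cd68 and Cd14) and none was at 0 in all libraries. The summed level of the 10 was 26.3 (C1), 16.2 (C2) and 18.1 CPM (C3). Of 6 fibroblast markers 1 did, Pdgfra, with 18.4 (C1), 19.35 (C2) and 17.3 CPM (C3), and Lum and Thy1 were at 0. None of 5 hepatocyte markers did, and Alb, Ttr and Hnf4a were at 0.

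Serine is made from a glycolytic intermediate in a short chain of reactions. Serine hydroxymethyltransferases then split it into glycine and a one-carbon unit that folate carries to purine, thymidylate and methionine synthesis. Proliferating tumour cells are known to rely on this route, and many of its genes, with those for asparagine and proline synthesis, are textbook targets of ATF4, a transcription factor that is translated when amino acids run short or the endoplasmic reticulum is stressed.

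Most of the 41 genes were well expressed. In every library 34 of them reached 1 CPM, beside 33.8% of all symbols in the table, and 16 averaged over 100 CPM. Oat, the lowest of these 16 at 109.5 CPM, lay above 80.9% of all genes that reached 1 CPM in every library. Together the 41 genes took 0.552% ± 0.030 of all counts (SD, n = 3). Their summed level was 5606 (C1), 5773 (C2) and 5185 CPM (C3). The median of the 34 detected members was 87.2 CPM, and that of all 11700 genes detected by the same rule was 35.9 CPM.

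**Figure D1:**
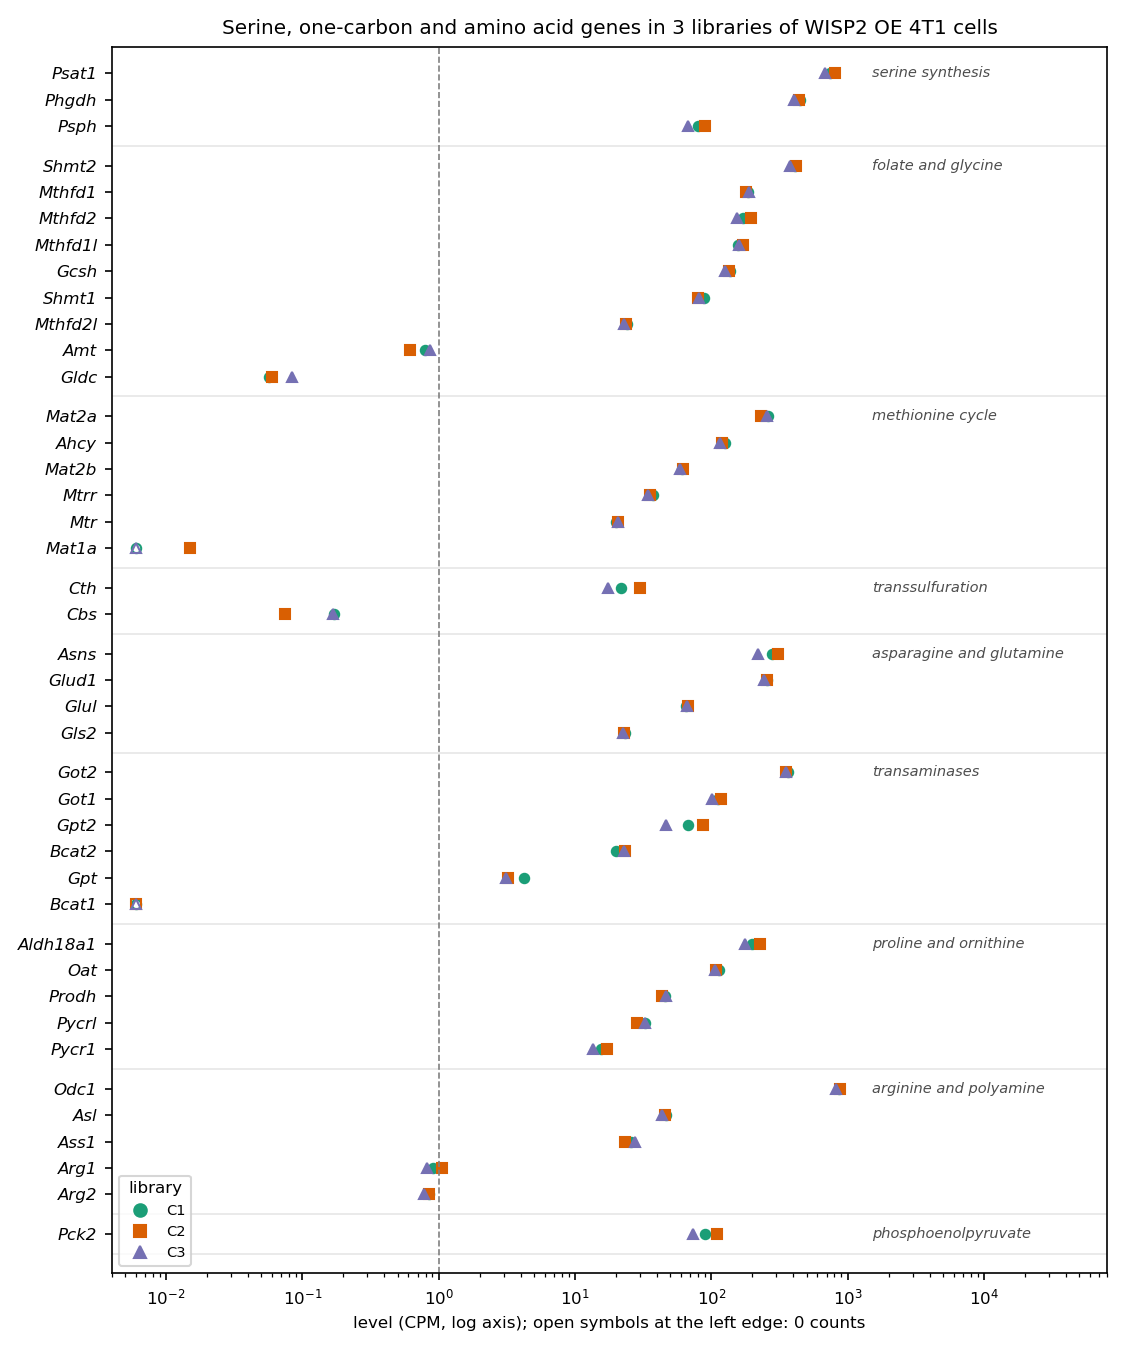
Level of each of the 41 genes in CPM (log axis) in the 3 libraries, grouped by pathway step; the dashed line marks 1 CPM and open symbols at the left edge mark 0 counts. Odc1 and Psat1 sit highest, between 681 and 879 CPM, and 7 genes (Amt, Gldc, Mat1a, Cbs, Bcat1, Arg1 and Arg2) do not reach 1 CPM in every library.

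All 3 enzymes of serine synthesis were expressed, and the chain was uneven. Psat1, which transfers an amino group from glutamate to the serine precursor, stood at 744 (C1), 809.8 (C2) and 681 CPM (C3). Phgdh, the dehydrogenase that opens the chain, had 447, 440.0 and 404 CPM in C1, C2 and C3. Psph, the phosphatase that releases serine, had 79.2, 90.5 and 67.6 CPM in the same libraries. Psat1 and Phgdh lay above 98.9% and 97.1% of the detected genes, and Psph above 72.9%. C3 was the lowest library for each of the 3 genes.

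Counts favour long transcripts, so levels of different genes are compared after division by length. The merged exon length of the gene in GENCODE M21 was used, and, added after the data were seen, the length of its principal transcript. Within libraries Psat1 exceeded Psph by 3.24 ± 0.09 in log2 counts (9.46-fold; SD, n = 3), which became 9.62-fold per exon length and 6.26-fold per principal transcript. The log2 ratio of Phgdh to Psat1 was -0.79 ± 0.08 in counts, but its mean was -0.01 per exon length and -0.32 per principal transcript, so the order of these 2 genes was not settled.

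In folate metabolism the mitochondrial serine hydroxymethyltransferase led. Shmt2, the mitochondrial enzyme, stood at 410.4 (C1), 421 (C2) and 378 CPM (C3), and Shmt1, its cytosolic partner, at 88.5, 79.5 and 81.2 CPM. The ranges of the 2 genes were far apart in all libraries. Shmt2 exceeded Shmt1 by 2.28 ± 0.11 in log2 counts (4.85-fold; SD, n = 3), and by 6.06-fold per unit of length on both length scales. The dehydrogenase of the mitochondrial pathway known from embryonic and tumour cells, Mthfd2, had 172, 194 and 155 CPM in C1, C2 and C3. Its relative Mthfd2l had 24.2, 23.6 and 22.9 CPM. Mthfd2 exceeded Mthfd2l by 7.32-fold in counts, by 14.0-fold per exon length and by 7.58-fold per principal transcript. Mthfd1l, which releases formate in mitochondria, had 156, 169.7 and 158 CPM in C1, C2 and C3, and Mthfd1, the trifunctional cytosolic enzyme that takes formate up, had 187, 181 and 188 CPM. The log2 ratio of Mthfd1l to Mthfd1 was -0.20 ± 0.09 in counts, and Mthfd1l was lower in 3 of 3 libraries, also on both length scales.

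The glycine cleavage system, a mitochondrial complex that breaks glycine down, was expressed in part. Gcsh, its lipoyl carrier protein, had 138, 136 and 127 CPM in C1, C2 and C3. Amt, the aminomethyltransferase, had 14, 41 and 41 counts (0.794, 0.612 and 0.862 CPM) and stayed below 1 CPM in each library. Gldc, the decarboxylase of the complex, had 1, 4 and 4 counts, the upper end of whose 95% exact binomial interval was 0.316 (C1), 0.153 (C2) and 0.215 CPM (C3). Of these 3 genes Gcsh alone was detected by the 1 CPM rule; Dld, the dehydrogenase that the complex shares with others and no member of the list, had 203, 216 and 187 CPM and was named after its values were seen. These intervals cover counting error only.

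In the methionine cycle the extrahepatic adenosyltransferase was abundant and the liver form nearly absent from the counts. Mat2a, the catalytic methionine adenosyltransferase found outside the liver, stood at 261 (C1), 233 (C2) and 258 CPM (C3). Mat1a, the liver form, had 1 count, in C2. Over the libraries the counts stood at 32480 for Mat2a and 1 for Mat1a, a ratio of 32480 with a 95% counting interval of 5829 to 1282930. Mat2b, the regulatory subunit, had 61.0, 61.6 and 58.8 CPM in C1, C2 and C3. Mat2a exceeded it by 4.14-fold in counts, 4.62-fold per exon length and 2.88-fold per principal transcript. Ahcy, which hydrolyses the homocysteine precursor left after methyl transfer, had 126, 119 and 116 CPM. Mtr, the methionine synthase that receives the folate methyl group, had 19.9, 20.5 and 20.8 CPM, and Mtrr, the reductase that reactivates it, 37.5, 35.4 and 34.2 CPM. The coefficient of variation between libraries was 6.22% for Mat2a, above the median of 4.95% over all detected genes. For the other 4 detected genes of the cycle it was below that median, from 2.17% (Mtr) to 4.60% (Mtrr).

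Transsulfuration, which passes the sulfur of homocysteine to cysteine, showed its second enzyme detected and its first below 1 CPM. Cth, which cleaves cystathionine to cysteine, had 21.6 (C1), 29.8 (C2) and 17.4 CPM (C3). Cbs, which makes cystathionine from serine and homocysteine, had 3, 5 and 8 counts (0.170, 0.0746 and 0.168 CPM). The libraries differed widely for Cth, whose coefficient of variation was 27.6%, while Cbs was too shallow for its libraries to be compared.

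Of the genes around glutamine and asparagine all 4 were detected. Asns, which makes asparagine from aspartate and glutamine, stood at 279.6 (C1), 311 (C2) and 221 CPM (C3). Glul, the glutamine synthetase, had 65.2, 66.9 and 66.0 CPM, and Gls2, the liver-type glutaminase, 23.1, 22.8 and 22.5 CPM. Glul and Gls2 hardly differed between libraries (coefficients of variation 1.29% and 1.34%), in contrast to Asns (16.8%). Asns exceeded Glul by 2.02 ± 0.25 in log2 counts (4.05-fold; SD, n = 3), by 4.93-fold per exon length and by 5.61-fold per principal transcript. Glud1, the mitochondrial glutamate dehydrogenase, had 257, 257 and 242 CPM in C1, C2 and C3.

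Among the transaminases, and for Pck2, the mitochondrial enzyme of each pair was the higher one. Got2, the mitochondrial aspartate aminotransferase of the malate-aspartate shuttle, had 367 (C1), 356 (C2) and 353 CPM (C3), and Got1, its cytosolic partner, had 111, 118 and 100.5 CPM. Got2 exceeded Got1 by 1.71 ± 0.11 in log2 counts (3.27-fold; SD, n = 3), by 1.72-fold per exon length and by 2.66-fold per principal transcript. Gpt2, the mitochondrial alanine aminotransferase, had 67.2, 87.1 and 46.8 CPM. Gpt, the cytosolic form, had 4.25, 3.21 and 3.11 CPM. Gpt2 was thus far above Gpt in each library, but by an uneven margin: the log2 ratio of counts was 3.97 (C1), 4.76 (C2) and 3.91 (C3), and the mean ratio was 18.5-fold in counts, 9.66-fold per exon length and 9.13-fold per principal transcript. Bcat2, the mitochondrial branched-chain aminotransferase, had 20.0 (C1), 23.2 (C2) and 22.8 CPM (C3). Bcat1, the cytosolic form, had 0 counts throughout, and that allows a level of up to 0.170 CPM (C1), 0.0448 CPM (C2) or 0.0631 CPM (C3). With a floor of 3 counts per library Bcat2 was at least 118-fold (C1), 518-fold (C2) and 361-fold (C3) higher than Bcat1 in counts. The lowest of these bounds, that of the shallow library C1, came to at least 281-fold per exon length and 169.7-fold per principal transcript. Pck2, the mitochondrial phosphoenolpyruvate carboxykinase, had 90.6, 111 and 72.8 CPM, and its cytosolic relative Pck1, no member of the list, had 0 counts. With the same floor Pck2 was at least 532-fold (C1), 2474-fold (C2) and 1155-fold (C3) higher than Pck1 in counts, and in C1 at least 234-fold per exon length and 306-fold per principal transcript.

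The gene that opens proline synthesis stood above the one that opens proline breakdown. Aldh18a1, which makes the common precursor of proline and ornithine from glutamate, stood at 199.8 (C1), 226 (C2) and 178 CPM (C3). Prodh, which oxidises proline, had 45.5, 43.2 and 46.1 CPM. Aldh18a1 exceeded Prodh by 2.16 ± 0.22 in log2 counts (4.45-fold; SD, n = 3), by 8.53-fold per exon length and by 3.01-fold per principal transcript. Of the reductases that complete proline, Pycr1, a mitochondrial one, had 15.5, 17.2 and 13.6 CPM and Pycrl, the cytosolic one, 32.5, 28.4 and 32.4 CPM. Pycr1 was the lower in 3 of 3 libraries, with a log2 ratio to Pycrl of -1.02 ± 0.27 in counts, and Pycrl was 5.94-fold above it per exon length and 4.40-fold per principal transcript. Oat, which links ornithine to the same precursor, had 113, 109 and 107 CPM in C1, C2 and C3.

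Ornithine decarboxylase was the most abundant member. Odc1, which commits ornithine to polyamine synthesis, had 867 (C1), 879 (C2) and 815 CPM (C3) and lay above 99.1% of the detected genes. Per length, too, it ranked first of the 41, at 251 ± 9.96 CPM per kilobase of exon and 387 ± 15.4 CPM per kilobase of principal transcript, with Psat1 at 175 ± 15.2 and 285 ± 24.7 and Phgdh at 173 ± 9.19 and 227 ± 12.1 on the same scales. The log2 ratio of Oat to Odc1 was -2.96 ± 0.05 in counts, and Odc1 stood 5.40-fold above Oat per exon length and 7.59-fold per principal transcript. The enzymes that build arginine from citrulline were modest: Ass1, which joins citrulline to aspartate, had 25.9, 23.3 and 27.6 CPM in C1, C2 and C3, and Asl, which then releases arginine, had 46.2, 46.0 and 43.7 CPM. Ass1 was lower than Asl in counts in 3 of 3 libraries (log2 ratio -0.82 ± 0.16); the mean log2 ratio was 0.18 per exon length and -0.32 per principal transcript, so that order was not settled.

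Arginases, which split arginine into ornithine and urea, were barely detected. Arg1, the cytosolic form known from liver and from macrophages, had 16, 71 and 39 counts (0.908, 1.06 and 0.820 CPM in C1, C2 and C3). Arg2, the mitochondrial form, had 15, 57 and 37 counts (0.851, 0.850 and 0.778 CPM). The counting intervals of all libraries overlapped one another for both genes, and the mean log2 ratio of Arg2 to Arg1 was -0.16 ± 0.13 in counts but 0.48 per exon length and -0.11 per principal transcript. The part of macrophages in the Arg1 counts was not tested.

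**Figure D2:**
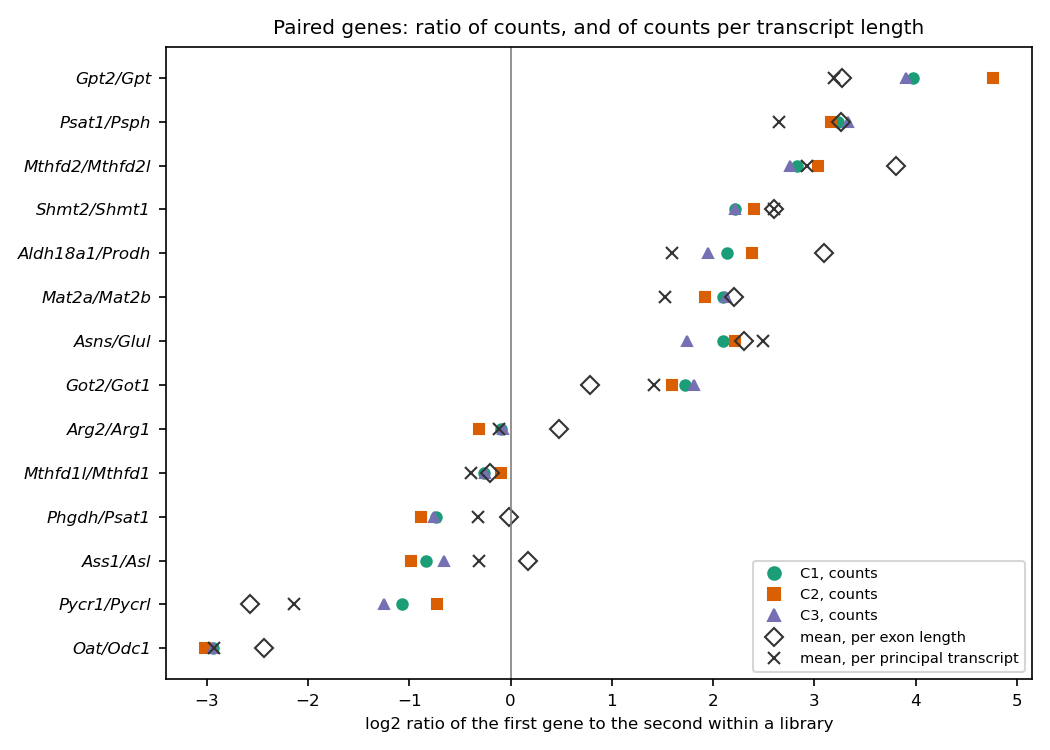
Log2 ratio of the first gene to the second within each library for the 14 pairs in which both genes had more than 3 counts; filled symbols are counts in C1, C2 and C3, diamonds the mean per exon length and crosses the mean per principal transcript. Arg2/Arg1 and Ass1/Asl change sign with exon length, Phgdh/Psat1 approaches 0, and the other pairs keep their side on both scales.

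Of 17 gene pairs compared, the first was higher in every library for 11 in counts, for 13 per exon length and for 11 per principal transcript. With 3 libraries the smallest two-sided p of an exact sign-flip test is 0.25, and no such test was run on these ratios.

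Pathway genes outside the list were taken from a fixed set of 40. Of these 28 reached 1 CPM in every library, beside 33.8% of all symbols, and 9 had 0 counts throughout. The most abundant were Mtap, which salvages methionine from polyamine synthesis, at 718 ± 35.0 CPM (SD, n = 3), Azin1, an inhibitor of the antizyme that turns over ornithine decarboxylase, at 527 ± 16.7 CPM, Cad, which starts pyrimidine synthesis from glutamine, at 469.7 ± 19.5 CPM, and Ahcyl1, a relative of Ahcy, at 297 ± 24.1 CPM. The urea cycle genes Otc and Cps1 and the proline dehydrogenase gene Prodh2 had 0 counts. The median of the log2 difference of C2 minus C3 was 0.05 over the 28 detected genes. The order C2 above C1 above C3 was seen in 11 of the 28, beside 21.3% of all detected genes. Aldh1l2, the mitochondrial enzyme that oxidises formyl-folate, lay below 1 CPM in C3 (18, 71 and 24 counts, or 1.02, 1.06 and 0.504 CPM in C1, C2 and C3); it was picked out after its values were seen.

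The members split in how much they differed between libraries. Of the 34 detected members 12 are textbook ATF4 targets: Phgdh, Psat1, Psph, Shmt2, Mthfd1l, Mthfd2, Asns, Aldh18a1, Pycr1, Cth, Gpt2 and Pck2. That division was made with earlier results known and is no independent evidence. Over these 12 genes the median log2 difference was 0.34 for C2 minus C3, -0.16 for C1 minus C2 and 0.18 for C1 minus C3. Over the other 22 detected members the same medians were 0.03, 0.04 and 0.07, and over all 11700 detected genes 0.0060, 0.00056 and 0.0059. The median coefficient of variation was 11.8% for the 12 genes, 3.72% for the other 22 and 4.95% for all detected genes.

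C2 was above C3 for all 12 of the ATF4-linked genes and for 15 of the other 22, beside 51.6% of detected genes. The largest differences of C2 minus C3 belonged to Gpt2 (0.90 in log2 CPM, 1.86-fold), Cth (0.78, 1.72-fold), Pck2 (0.60, 1.52-fold), Asns (0.49, 1.41-fold) and Psph (0.42, 1.34-fold). Aldh18a1 (0.35), Pycr1 (0.34), Mthfd2 (0.33) and Psat1 (0.25) followed, and Shmt2 (0.15), Phgdh (0.12) and Mthfd1l (0.10) differed least. Phgdh and Psat1, the abundant genes of the serine route, thus differed less than Gpt2, Cth and Pck2. Phgdh was highest in C1 and Mthfd1l lowest in C1, and the other 10 had the order C2 above C1 above C3.

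**Figure D3:**
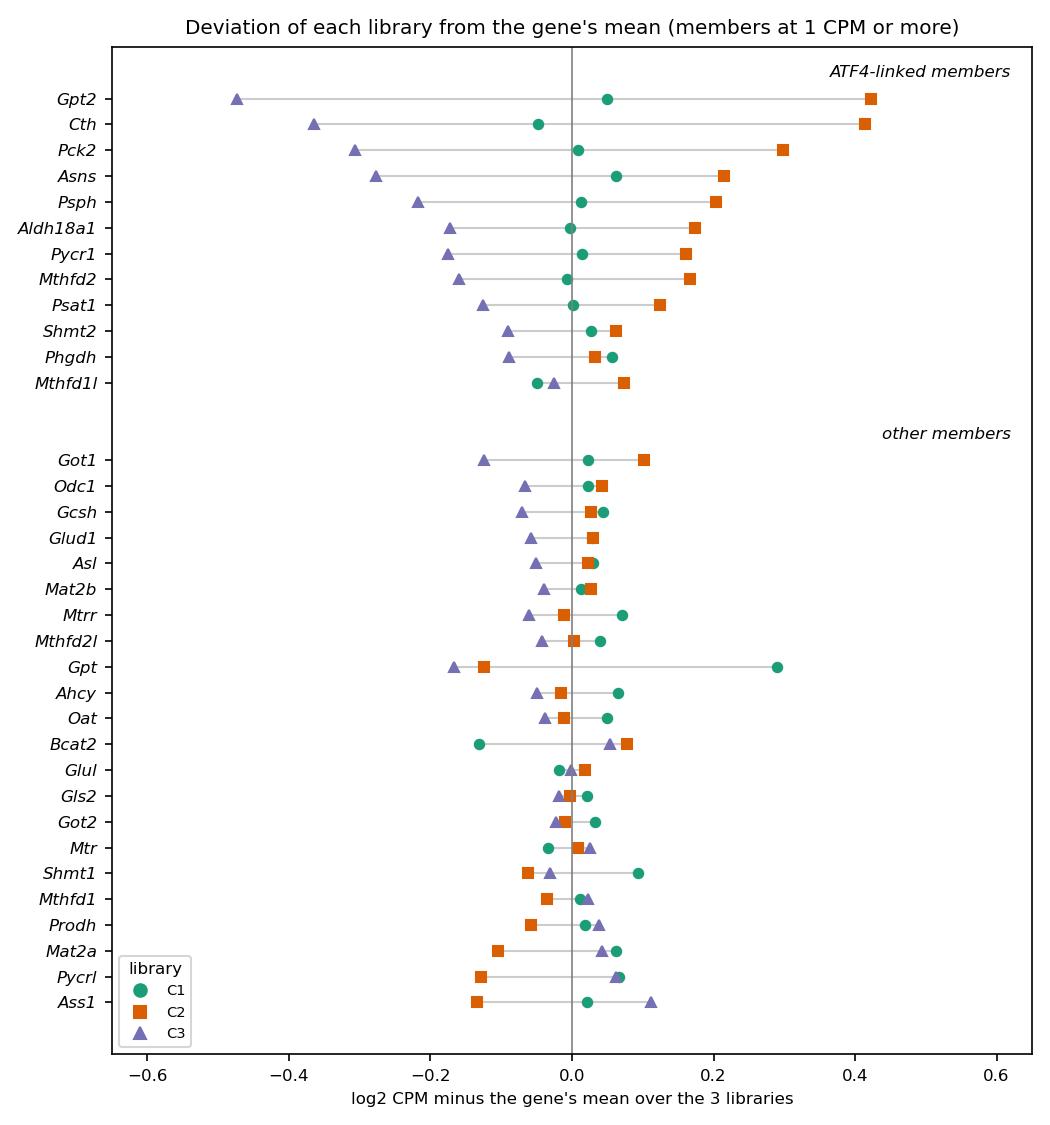
Log2 CPM of a library minus the mean of that gene over the libraries, for the 34 members at 1 CPM or more, the 12 ATF4-linked genes above and the other 22 below, each sorted by C2 minus C3. In the upper block C2 lies to the right of C3 for every gene, by 0.10 to 0.90, and in the lower block by -0.25 to 0.23.

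That order was seen in 14 of the 34 detected members, beside 21.3% of all detected genes: 10 of the 12 and 4 of the other 22 (Mat2b, Glud1, Got1 and Odc1). C2 exceeded C3 by 1.25-fold or more, a limit set after the values were seen, in 8 of the 34, beside 2.61% of detected genes; all 8 were among the 12. The 95% counting intervals of C2 and C3 were apart for 20 of the 34, beside 34.1% of detected genes, 12 of them ATF4-linked. Since the members were chosen on these libraries, nothing about them is read from these shares. Depth was greatest in C2 and lowest in C1, and its part in the order was not tested.

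**Figure D4:**
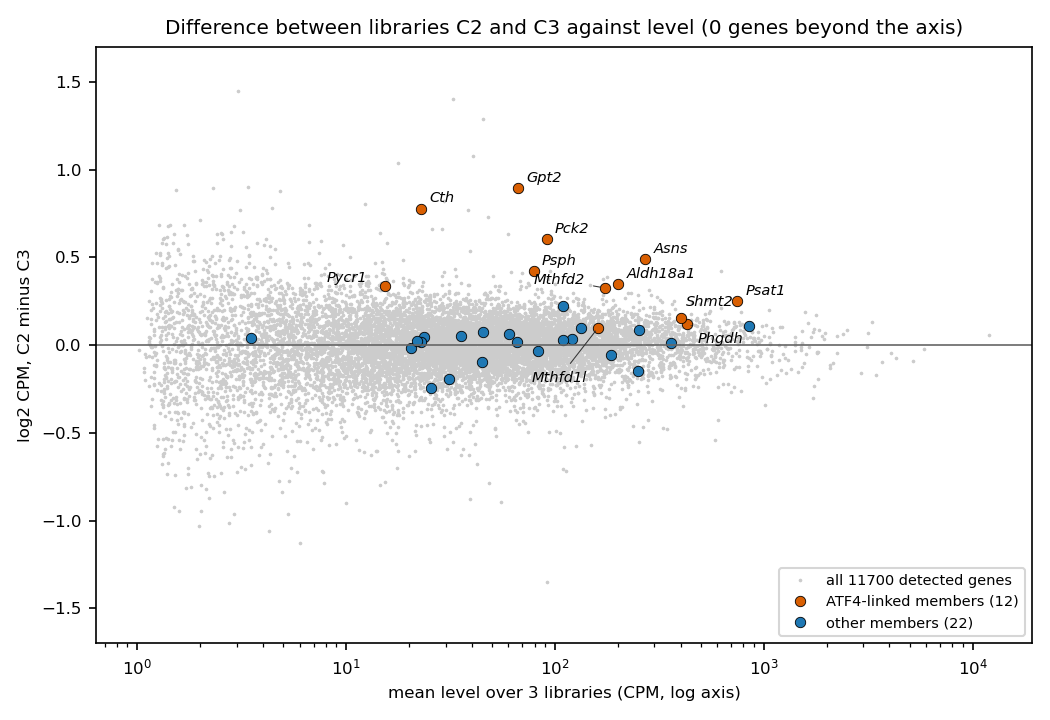
Log2 CPM of C2 minus C3 against the mean level (CPM, log axis) for all 11700 detected genes (grey), the 12 ATF4-linked members (orange) and the other 22 detected members (blue). The orange points lie between 0.10 and 0.90, and the blue ones between -0.25 and 0.23.

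Outside the 12, C2 and C3 lay closer together. The widest spread there was that of Gpt, a low gene that was highest in C1 (coefficient of variation 18.0%). Ass1 (-0.25), Pycrl (-0.19) and Mat2a (-0.15) were lower in C2 than in C3, and Got1 showed the largest difference the other way (0.23). Got2, which shares its reaction with Got1, differed by 0.01 between C2 and C3. Likewise Gpt differed by 0.04 where Gpt2 differed by 0.90, and Mthfd2l by 0.04 where Mthfd2 differed by 0.33.

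A list of 12 ATF4 marker genes that are no members followed nearly the same order of libraries. That list, too, was chosen with earlier results of these libraries known. It is no independent evidence, and nothing about the members is read from its shares. All 12 reached 1 CPM in every library, beside 33.8% of all symbols. All 12 were highest in C2, beside 4144 of the 11700 detected genes. The order C2 above C1 above C3 was seen in 11 of them, beside 21.3% of detected genes. Their summed level was 775 (C1), 916 (C2) and 707 CPM (C3). Atf4 itself stood at 309, 352 and 295 CPM. The largest differences of C2 minus C3 among them were those of the pseudokinase gene Trib3 (1.08 in log2 CPM), Chac1, which degrades glutathione (0.82), and the stress sensor gene Sesn2 (0.81). The part of ATF4 in the order of the members was not tested.

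Across all genes that passed the filter on low counts, spread was measured against counting noise and against genes of similar level. Of the 41 members 37 passed the filter, all but Gldc, Mat1a, Cbs and Bcat1. Of the 37, 22 varied beyond counting noise (Poisson dispersion test with Benjamini-Hochberg adjustment), beside 39.4% of the 13026 genes tested. They were all 12 of the ATF4-linked genes and 10 others. Against genes of similar level 1 member, Gpt2, passed edgeR's quasi-likelihood F test, beside 0.0691% of the genes tested, and 8 members, all ATF4-linked, had an unadjusted p under 0.05, beside 5.14% of the genes tested. The rule used these libraries, so nothing is read from these counts. Without C1 the F test passed Cth, Gpt2 and Pck2, among 33 of 13337 genes. Without C2 it passed Asns and Gpt2, among 106 of 12774 genes. Without C3 it passed no member and 8 of 12970 genes, with 8 members and 625 genes at an unadjusted p under 0.05. In the full set 9 genes passed it. With a robust prior no gene passed, with 4 members and 589 genes at an unadjusted p under 0.05. Of the fixed pathway genes outside the list 30 passed the filter; 21 varied beyond counting noise, and none passed the F test, with 4 at an unadjusted p under 0.05.

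ATF4 binds, with a C/EBP partner, an element whose core is written TGATGNAAN. The promoters of the members were searched for these letters on both strands, over 250 bases before and 50 after the start in RefSeq (GRCm38.p6). Entries were matched for 33 of the 41 members; Mat1a, Cth, Gls2, Gpt, Pycrl, Asl, Arg1 and Arg2 had none. The letters stood in 4 of the 33 (12.1%), beside 4.5% of 27025 genes with a promoter of that length. They were found in 3 of the 11 ATF4-linked members with an entry (Asns, Pck2 and Pycr1) and in 1 of the other 22, Got1. Both groups were small, and the match is a description, not a binding site.

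The 4 promoters are shown because their genes are the ones that hold the element. Each is written in the direction of the gene with the element in capitals; in Got1 and Pck2 it lies on the opposite strand and is seen as its reverse complement. They are Asns at chr6:7693160-7693459 (minus strand), Pck2 at chr14:55540016-55540315 (plus strand), Pycr1 at chr11:120643699-120643998 (minus strand) and Got1 at chr19:43524556-43524855 (minus strand), in GRCm38.p6 coordinates; the submitters' processing notes name another build, mm9, for the counts.
Asns: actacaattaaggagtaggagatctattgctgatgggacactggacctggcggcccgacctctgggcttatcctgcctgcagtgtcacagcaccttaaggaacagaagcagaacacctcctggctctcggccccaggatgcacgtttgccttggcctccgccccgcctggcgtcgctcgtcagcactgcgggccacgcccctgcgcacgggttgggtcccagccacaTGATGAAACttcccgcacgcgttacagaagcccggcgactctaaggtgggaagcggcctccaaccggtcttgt
Pck2: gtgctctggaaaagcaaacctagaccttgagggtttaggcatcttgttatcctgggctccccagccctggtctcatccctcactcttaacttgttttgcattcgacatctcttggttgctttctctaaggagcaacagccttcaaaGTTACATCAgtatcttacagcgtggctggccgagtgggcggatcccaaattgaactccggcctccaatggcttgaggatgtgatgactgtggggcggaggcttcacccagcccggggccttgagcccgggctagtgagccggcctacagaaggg
Pycr1: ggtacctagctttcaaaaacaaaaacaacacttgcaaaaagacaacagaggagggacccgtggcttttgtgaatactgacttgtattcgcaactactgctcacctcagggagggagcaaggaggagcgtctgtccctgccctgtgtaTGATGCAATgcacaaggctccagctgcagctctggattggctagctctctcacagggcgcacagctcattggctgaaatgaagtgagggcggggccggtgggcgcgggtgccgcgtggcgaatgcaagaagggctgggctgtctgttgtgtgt
Got1: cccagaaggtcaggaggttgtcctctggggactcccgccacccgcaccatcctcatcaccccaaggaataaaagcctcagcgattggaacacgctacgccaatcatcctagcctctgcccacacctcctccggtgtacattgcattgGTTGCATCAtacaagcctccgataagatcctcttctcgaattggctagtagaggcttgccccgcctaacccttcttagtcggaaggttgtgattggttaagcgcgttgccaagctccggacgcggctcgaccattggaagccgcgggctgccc

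Read on its own strand, the element is TGATGAAAC in Asns, TGATGTAAC in Pck2, TGATGCAAT in Pycr1 and TGATGCAAC in Got1. In Asns it begins 23 bases before the start, and in Pycr1 and Got1 103 and in Pck2 104 bases before it. These 4 genes had a C2 minus C3 difference of 0.49 (Asns), 0.60 (Pck2), 0.34 (Pycr1) and 0.23 (Got1) in log2 CPM, and each had the order C2 above C1 above C3. The same order was seen in ATF4-linked members with an entry but without the letters: Psat1, Psph, Shmt2, Mthfd2, Aldh18a1 and Gpt2. Their differences ran from 0.15 (Shmt2) to 0.90 (Gpt2). Phgdh and Mthfd1l, also without the letters, had another order. Gpt2, whose difference was larger than that of any of the 4, had no such letters in this window. The E-box CACGTG, bound by MYC and related factors, stood in 3 of the 33 members (9.09%: Aldh18a1, Ass1 and Cbs), beside 8.09% of all genes with a promoter. None of these 3 holds the other element in this window.

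Some values carry a limit of the annotation. In GENCODE M21, exons of 12 members share bases with a gene on the opposite strand, for example Psph with Cct6a, Bcat2 with 0610005C13Rik and Mat2a with Particl, and those of Glul share bases with Mir8114 on the same strand. The kit keeps strand, but no source used here gives the strand setting of the counting, so reads of such pairs may not have been told apart.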

How the data were processed

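Messenger RNA was sequenced from 3 libraries of 1 group, with a stranded poly(A) kit per the labels' protocols. The authors deposited whole-number counts per gene symbol; CASAVA 1.7, BWA, STAR, HTSeq and the build mm9 are named in the submitters' processing notes, without their roles. The sources used here name neither the annotation nor the strand setting, nor how reads with several matches were treated. No row was left out as naming no gene. Columns carry the suffixes C1 to C3 and were tied to the group, not to a sample number.

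CPM were taken on column totals. A gene was detected at 1 CPM or more in every library. Intervals are exact Clopper-Pearson 95% intervals, and 0 counts got a floor of 3 counts; both cover counting error only. Log2 differences and ratios had 0.5 counts added. Spread was tested with R 4.3.3 and edgeR 4.0.16 (filterByExpr, TMM, limma 3.58.1): a Poisson dispersion test, and the quasi-likelihood F test of a gene's dispersion against the trend, with Benjamini-Hochberg adjustment over all 13026 genes and a threshold of 0.05. Both were checked on simulated data. Size factors of DESeq2 1.42.0 served as an alternative scaling.

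The members and all gene lists were chosen with earlier results of these data known. All members were described; of the other pathway genes the 4 most abundant, up to 3 at 0 and those in a pair were named, and of the ATF4 markers the 3 with the largest difference between libraries. A gene of the planned pathway list, and its pair, are not reported here. Division by the principal transcript and the 1.25-fold count were added after the data were seen. Other scalings, thresholds, filters, prior settings, added counts and leaving out each library were also tried.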

Additional observations from a re-analysis of the deposited data

How the results depend on the processing

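Of the members 34 reached 1 CPM in every library under TMM, DESeq2 size factors, a 2 CPM threshold and without any 1 library, and 37 did so at 0.5 CPM. The median differences between libraries kept their direction under both other scalings, 2 added counts and a wider choice of members, except C1 minus C2 over all members (-0.0077), which came to 0.0070 over all members with a count in every library. Leaving out 1 library gave 12 to 20 members beyond counting noise, the 12 without C3, against 22 in the full set. The calls over all genes fell as well, from 5134 of 13026 genes in the full set. They came to 4953 of 13337 without C1, 1731 of 12774 without C2 and 1639 of 12970 without C3. Beyond genes of similar level there were 0 to 3 members, against 1 in the full set. A robust prior gave 0 beyond genes of similar level. Of the pair ratios Arg2/Arg1 (0.48) and Ass1/Asl (0.18) turned positive on division by exon length; the other 15 kept their direction under every setting run. Phgdh/Psat1 came to -0.01 there. The cause of the counts moved by C3 and by the prior was not tested. Depth limits the members below 1 CPM, whose libraries could not be told apart within their counting intervals. No paired analysis was possible because the libraries form 1 group and their columns carry no sample number.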
